A study of Mus musculus with 6 samples.

Results

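The 46 genes described here encode proteins of DNA replication and mitosis, and they were measured in kidney RNA of newborn mice labelled as knockout or wild type for Usp10, which encodes a deubiquitinating enzyme. They were taken from a list of gene names, with no threshold on their values, and each was read through array probes whose accession belongs to it. All 46 had a probe and all 46 entered the test, among 21220 genes tested, of which 15197 carried a gene symbol. The 16 replication genes and the 30 mitosis genes are treated apart. Kidneys were taken from male-labelled neonates about 6 hours after birth, 3 labelled Usp10 knockout (KO) and 3 labelled wild type (WT), and each RNA was hybridised to its own single-colour Agilent array. The question is how kidney RNA differs with the genotype. The strain, the deleted part of Usp10 and the cells in which it was deleted are not given in the sources used here.

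A cell that divides passes through G1, copies its DNA in S phase and separates the copies in mitosis. In G1 the cyclin E kinases and the E2F transcription factors open the way to S phase, the loading factors Cdc6 and Cdt1 place the Mcm helicase on DNA, and Pcna clamps the polymerases to the template. In mitosis the cyclin B kinase, the Aurora and Polo kinases, motor proteins and the kinetochore divide the chromosomes, and the anaphase-promoting complex ends the phase. The newborn mouse kidney still forms nephrons from dividing progenitors in its outer rim, so transcripts of both phases are abundant in it. In bulk RNA a lower signal from fewer dividing cells cannot be told apart from one from less RNA per dividing cell.

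Replication and mitosis genes are known to be driven by different promoter elements, and these are shown because the 2 gene groups described below differ in some of them. Mitosis genes commonly carry a cell cycle homology element, with the core TTTGAA, near a CCAAT box, the site of NF-Y. Replication genes commonly carry E2F elements such as TTTGGCGC and TTTCCCGC. RefSeq windows of build GRCm38.p6, from 250 bases before to 50 bases after an annotated start, were found for 38 of the 46 genes. They comprise 26 windows of 25 mitosis genes and 14 windows of 13 replication genes, and were searched on both strands; none of the 4 motifs contains another. TTTGAA was present in 20 of 26 mitosis windows (76.9%) and 1 of 14 replication windows (7.14%), against 17.9% of all 32851 windows. CCAAT was present in 21 of 26 mitosis and 9 of 14 replication windows, against 37.4% of all. An E2F element of either form was present in 6 of 14 replication windows and 0 of 26 mitosis windows, against 1.56% of all. A match is a string of letters and not a shown binding site. The 150 bases before the start follow for 4 mitosis and 3 replication genes, 5′ to 3′ on the gene's strand, with each match to any of the 4 motifs, on either strand, in capitals:
Ube2c (chr2:164769779-164769928, + strand): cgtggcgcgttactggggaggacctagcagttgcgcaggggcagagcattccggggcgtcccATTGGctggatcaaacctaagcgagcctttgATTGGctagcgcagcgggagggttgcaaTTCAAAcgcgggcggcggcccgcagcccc
Kif11 (chr19:37376232-37376381, + strand): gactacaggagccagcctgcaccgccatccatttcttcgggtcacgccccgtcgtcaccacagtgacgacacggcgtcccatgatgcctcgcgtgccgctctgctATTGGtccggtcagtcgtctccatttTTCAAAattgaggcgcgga
Cdc20 (chr4:118437344-118437493, - strand): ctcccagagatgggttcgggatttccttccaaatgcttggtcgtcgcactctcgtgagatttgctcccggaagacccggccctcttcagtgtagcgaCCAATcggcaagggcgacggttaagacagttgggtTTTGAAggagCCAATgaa
Cdk1 (chr10:69352913-69353062, - strand): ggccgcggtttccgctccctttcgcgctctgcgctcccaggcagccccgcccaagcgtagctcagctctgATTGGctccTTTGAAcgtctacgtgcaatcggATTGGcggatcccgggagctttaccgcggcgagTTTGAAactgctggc
Mcm5 (chr8:75109359-75109508, + strand): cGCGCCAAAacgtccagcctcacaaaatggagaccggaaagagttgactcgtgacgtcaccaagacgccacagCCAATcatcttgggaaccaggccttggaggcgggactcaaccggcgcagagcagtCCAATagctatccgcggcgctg
Mcm6 (chr1:128359706-128359855, - strand): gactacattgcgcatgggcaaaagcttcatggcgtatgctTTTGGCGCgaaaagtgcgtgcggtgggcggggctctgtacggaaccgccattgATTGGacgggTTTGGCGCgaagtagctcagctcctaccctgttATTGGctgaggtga
Cdc6 (chr11:98908001-98908150, + strand): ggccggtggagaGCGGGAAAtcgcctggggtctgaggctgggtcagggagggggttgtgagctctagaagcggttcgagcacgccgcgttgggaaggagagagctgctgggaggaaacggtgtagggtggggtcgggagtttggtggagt
In Ube2c, TTTGAA began 29 bases before the start and the nearest CCAAT 57 bases before it, and in Kif11 the same elements began 19 and 45 bases before the start. Mcm6 carried TTTGGCGC at 47 and 110 bases before its start, and no TTTGAA in its window.

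Signals were background-subtracted by the scanner software, taken to log2 and set relative to each array's 75th percentile, so a value of 0 is that percentile. The share of 43020 non-control spots well above background ranged over the arrays from 64.4% to 73.9%, and 0 spots were saturated. The 6 arrays were read in 2 scans, with KO replicates 1 and 2 and WT replicates 2 and 3 in scan 1 and KO replicate 3 and WT replicate 1 in scan 2. The Usp10 probe did not separate the labels as a loss of transcript would. It stood at 3.64, 3.37 and 3.56 on the arrays labelled KO and at 3.01, 3.12 and 2.95 on those labelled WT, and it may lie outside the deleted part, in which case it checks nothing. Sex-linked transcripts went against the male labels on WT replicate 2, where Ddx3y, Eif2s3y and Uty were not well above background, and on WT replicates 1 and 2, where an Xist probe was. WT replicate 1, the only WT array of scan 2, thus held both kinds. There Xist stood at -0.62, Ddx3y at -0.098 and Eif2s3y at 1.14, and Uty was well above background too. The cause was not tested. All directions below rest on the group labels, and values without WT replicate 2 and against WT replicate 3 alone are given with the results. The markers of nephron progenitors, ureteric tips, stroma, podocytes, proximal tubule and loop of Henle were well above background on all 6 arrays. Of 5 lymphocyte markers Cd3g and Ms4a1 were well above background on none.

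Most replication and mitosis genes had a lower mean signal on the arrays labelled KO, by amounts too small or too variable for any single gene to pass. Of the 16 replication genes 14 had a negative difference, and of the 30 mitosis genes 29 had one, where 46.3% of all genes did. The median log2 difference, KO minus WT, was -0.23 over the replication genes and -0.34 over the mitosis genes, against 0.031 over all genes tested. No member passed an adjusted p of 0.05 in limma, where 0.0613% of all genes passed as lower and 0.0189% as higher. The members' adjusted p lay between 0.373 and 0.932, and with scan as a block the lowest was 0.170. At an unadjusted p under 0.05, limma gave 1 replication gene and 9 mitosis genes as lower, where the share over all genes was 4.17%, and 0 members as higher, against 6.21%. With scan as a block it gave 1 and 11 as lower, against 7.13%. All 3 arrays labelled KO lay below all 3 labelled WT for 2 of 16 replication genes and 14 of 30 mitosis genes, against 7.99% of all genes. Cenpf, whose probe was well above background on all WT arrays but not on KO replicate 3, had passed the filter through the group where it was higher. In counts without it, chosen after the data were seen, 28 of 29 mitosis genes were negative with a median of -0.34, 8 were lower at an unadjusted limma p under 0.05 (10 with scan as a block) and 13 had non-overlapping groups. The labels describe separate neonates. For 1 gene alone, 3 arrays against 3 allow an exact two-sided permutation p no smaller than 0.1.

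**Figure D1:**
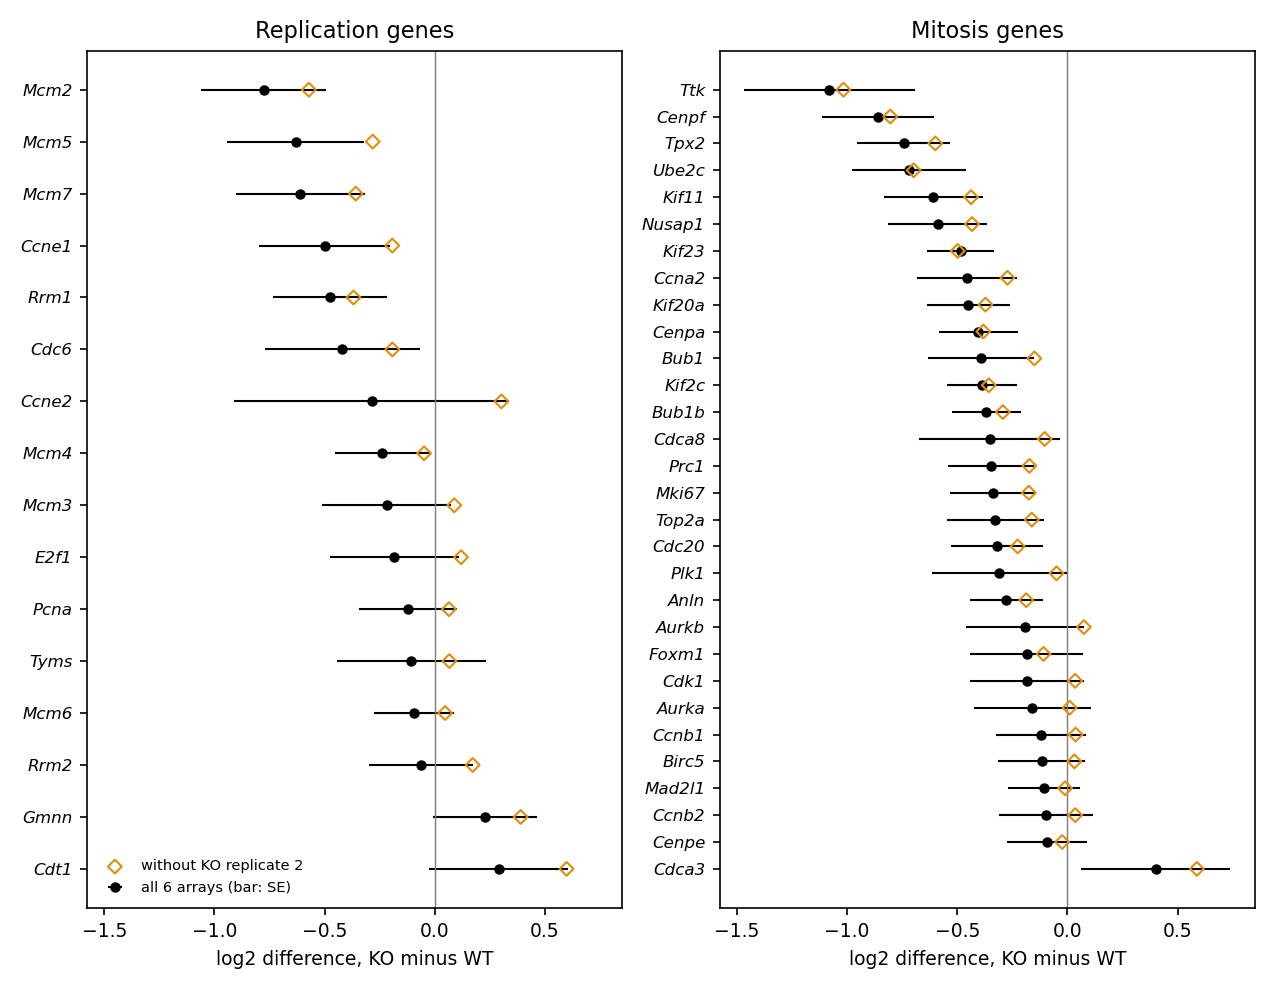
Log2 difference (KO minus WT, horizontal axis) of each replication gene (left) and mitosis gene (right). Black points with bars are the difference ± SE over all 6 arrays and open diamonds the difference without KO replicate 2. Ttk lies lowest at -1.08 and Cdca3 highest at 0.40, and 9 of the 16 replication diamonds lie right of 0.

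A large part of these differences rested on 1 array. KO replicate 2 was the lowest of the 6 arrays for 12 of 16 replication genes and 22 of 30 mitosis genes, where it was the lowest for 18.5% of all genes. As a deviation from each gene's mean over the 6 arrays, the replication genes had medians of 0.11, -0.58 and 0.12 on KO replicates 1, 2 and 3 and of 0.30, 0.036 and 0.036 on WT replicates 1, 2 and 3. The mitosis genes had medians of -0.014, -0.41 and -0.052 on the arrays labelled KO and of 0.26, 0.075 and 0.15 on those labelled WT. For the mitosis genes all 3 KO medians therefore lay below all 3 WT medians, while for the replication genes only KO replicate 2 did. Without KO replicate 2 the replication median was 0.056 and 7 of 16 genes were negative. The mitosis median was then -0.17 and 23 of 30 genes were negative, where 49.7% of all genes were.

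**Figure D2:**
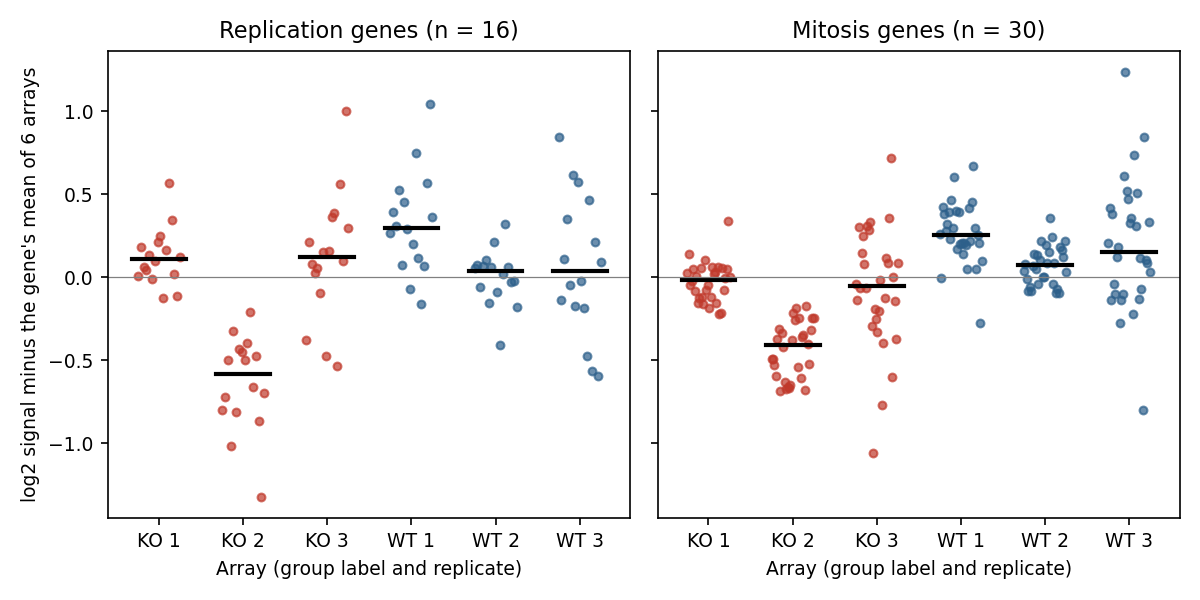
Log2 signal of each gene minus its mean over the 6 arrays (vertical axis) on each array, for the 16 replication genes (left) and 30 mitosis genes (right). Red points are arrays labelled KO, blue points arrays labelled WT and black lines the median over genes. KO replicate 2 has the lowest median in both panels, at -0.58 and -0.41.

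Each KO array was also set against the single WT arrays of its scan. KO replicate 1 minus WT replicate 2 gave a median of 0.11 over the replication genes, with 4 of 16 negative, and of -0.078 over the mitosis genes, with 25 of 30 negative. KO replicate 1 minus WT replicate 3 gave 0.077 with 6 of 16 negative, and -0.16 with 21 of 30 negative. KO replicate 2 minus the same arrays gave -0.59 and -0.67 for the replication genes and -0.50 and -0.57 for the mitosis genes. In scan 2, KO replicate 3 minus WT replicate 1 gave -0.20 with 14 of 16 negative and -0.31 with 29 of 30 negative. The mitosis genes were thus mostly lower in all 5 pairs of a scan, and the replication genes in 3 of 5. These pairs share arrays, so they are not independent, and the share over all genes was not taken for single pairs. Across scans, KO replicate 3 minus WT replicates 2 and 3 gave 17 and 19 of 30 mitosis genes negative, and 5 and 7 of 16 replication genes. KO replicates 1 and 2 minus WT replicate 1 gave 28 and 29 of 30, and 10 and 16 of 16. Within scans 1 and 2 the group medians were -0.24 and -0.20 for replication genes and -0.38 and -0.31 for mitosis genes. Both scans gave a negative difference for 13 replication and 29 mitosis genes, against 37.9% of all genes. Without WT replicate 2 the medians were -0.33 and -0.40, without WT replicate 1 they were -0.077 and -0.30, and against WT replicate 3 alone -0.098 and -0.34.

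KO replicate 2 also stood apart in markers of other kidney cells. The deviation from the mean of 6 arrays had a median there of -0.91 over 5 podocyte markers and -0.56 over 6 proximal tubule markers, and of 0.70 over the 3 measured collecting duct markers. The brightest 1% of its spots held 39.1% of its signal, against 29.4% to 31.9% on the other arrays. The proximal tubule glucose transporter gene Slc5a2 stood at -3.23 there and between 0.031 and 0.89 elsewhere. Hnf4a, the brightest of the 6 proximal tubule markers, went the other way, at 5.27 there and between 4.39 and 4.98 elsewhere. The part of these in the members' values was not tested.

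**Figure D3:**
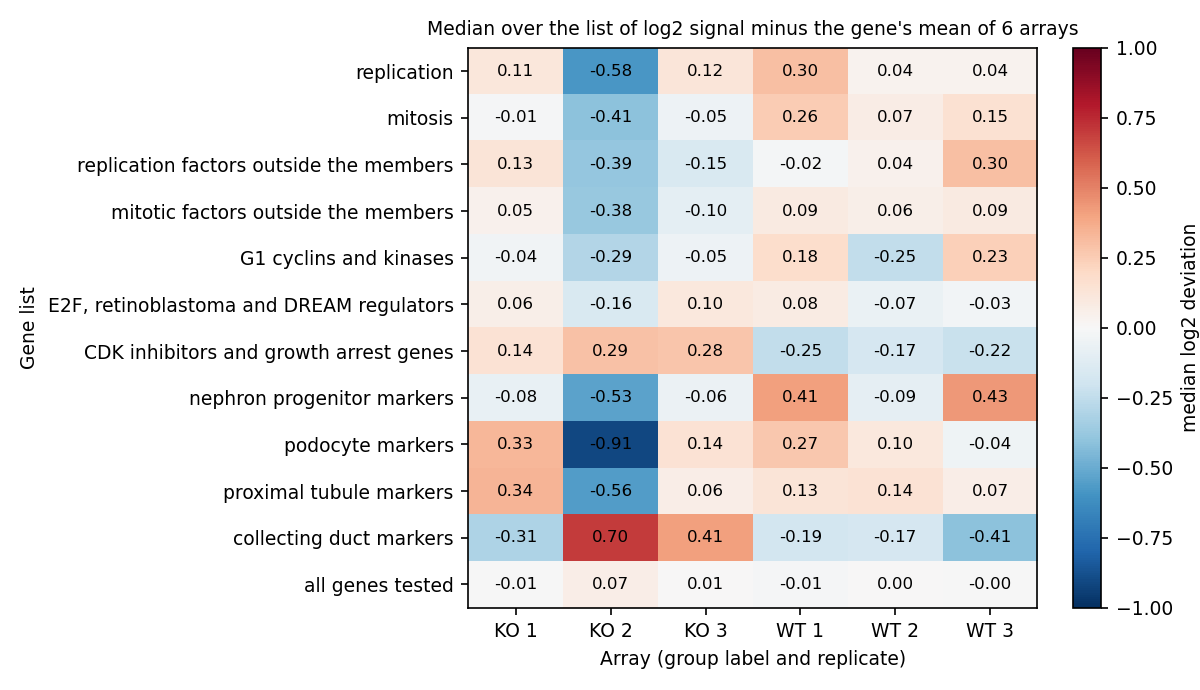
Median over each gene list (rows) of log2 signal minus the gene's mean of 6 arrays, on each array (columns), with the value written in each cell and coloured from -1 (blue) to 1 (red). KO replicate 2 is lowest for every row other than the CDK inhibitor list, the collecting duct list and all genes tested. The CDK inhibitor list is above 0 on the 3 arrays labelled KO and below 0 on the 3 labelled WT.

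Among the replication genes the helicase subunits were uneven. Mcm2 stood at 0.34, -0.46 and -0.044 on KO replicates 1 to 3 and at 0.60, 0.39 and 1.18 on WT replicates 1 to 3. The groups did not overlap, though KO replicate 1 and WT replicate 2 lay 0.043 apart. The log2 difference was -0.78 ± 0.28 (SE), 1.71-fold lower (limma adjusted p = 0.442), and -0.57 without KO replicate 2. Mcm5 stood at -0.21, -1.27 and -0.23 against 0.27, -0.19 and 0.098. Its groups did not overlap either, but KO replicate 2 set most of the difference of -0.63 ± 0.31, which was -0.28 without that array. Mcm7 had a difference of -0.61 ± 0.29 with overlapping groups. The other subunits of the ring, Mcm3, Mcm4 and Mcm6, had differences of -0.22, -0.24 and -0.092, and those of Mcm3 and Mcm6 were 0.089 and 0.047 without KO replicate 2. The 6 subunits form a single ring, yet their differences ranged from -0.78 to -0.092 with SE between 0.18 and 0.31.

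The loading factors and their inhibitor showed both signs. Cdt1, which brings the helicase to origins, stood at 2.10, 1.28 and 2.31 on the arrays labelled KO and at 1.82, 1.81 and 1.19 on those labelled WT. The groups overlapped and the difference was 0.29 ± 0.31. Gmnn, encoding geminin, which binds and blocks Cdt1, had a difference of 0.23 ± 0.24, and its lowest array was WT replicate 3. Cdc6, the ATPase that works with Cdt1, had a difference of -0.42 ± 0.35, with KO replicate 1 at -1.20 above all 3 arrays labelled WT. Cdt1 and Gmnn were the only replication genes with a positive difference, and neither passed.

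Genes of nucleotide supply and of the replication fork had differences from -0.47 to -0.062. Pcna, the polymerase clamp, had a difference of -0.12 ± 0.22 and was 0.065 without KO replicate 2. The large ribonucleotide reductase subunit gene Rrm1 stood at 1.78, 1.12 and 1.09 against 1.49, 1.78 and 2.14, a difference of -0.47 ± 0.26. The small subunit gene Rrm2, which limits the enzyme in S phase, had a difference of -0.062 ± 0.23. Tyms, thymidylate synthase, had a difference of -0.11 ± 0.34, and its sign was opposite within scans 1 and 2 (0.032 and -0.38). Of the regulators of S phase entry, the cyclin gene Ccne1 had a difference of -0.50 ± 0.30, Ccne2 one of -0.29 ± 0.62 and E2f1 one of -0.18 ± 0.29. Ccne2 had the widest spread of the members, from -4.20 on KO replicate 2 to -1.83 on WT replicate 1. Its signal was 1.53 higher in scan 2 than in scan 1 with group as a term.

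Among the mitosis genes several of the lowest differences belonged to spindle genes. Tpx2, which activates Aurora A and nucleates spindle microtubules, stood at 0.18, -0.31 and 0.052 on the arrays labelled KO and at 0.75, 0.45 and 0.96 on those labelled WT. The groups lay 0.27 apart, the largest gap after that of Kif23. The difference was -0.74 ± 0.21, 1.67-fold lower (limma adjusted p = 0.373), and -0.60 without KO replicate 2. Kif23, a motor of the central spindle, stood at 0.26, 0.23 and 0.11 against 0.64, 0.63 and 0.77. Both groups were tight and lay well apart, with SDs of 0.078 and 0.076 (n = 3) and a difference of -0.48 ± 0.15. It was -0.50 without KO replicate 2, so that array did not set it. It was -0.46 within scan 1 and -0.53 within scan 2 (limma adjusted p = 0.408, or 0.204 with scan as a block).

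Further motor and spindle genes followed the same order of groups, and the 6 set together here are ones whose groups did not overlap. Cenpe, a motor given below with the kinetochore genes, had overlapping groups and a difference of -0.093 ± 0.18. Kif11, the motor that separates the spindle poles, stood at -1.61, -2.19 and -1.73 against -1.15, -1.54 and -1.02, a difference of -0.61 ± 0.23. Kif2c, a motor that takes microtubules apart, had a difference of -0.39 ± 0.16 and Kif20a, a motor of cytokinesis, one of -0.45 ± 0.19. Nusap1, which bundles spindle microtubules, had a difference of -0.59 ± 0.22. Prc1, which bundles microtubules of the central spindle, and Anln, which encodes anillin of the contractile ring, had differences of -0.35 ± 0.20 and -0.28 ± 0.17. In each of these 6 genes, read by the brightest probe, the 3 arrays labelled KO lay below the 3 labelled WT. All 6 kept a negative difference without KO replicate 2, between -0.44 and -0.17. The dimmer Kif2c probe had overlapping groups and a difference of -0.26.

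The kinetochore and checkpoint genes ranged widely. Ttk, the checkpoint kinase Mps1, had the lowest difference of all members, -1.08 ± 0.39 (limma adjusted p = 0.439). It stood at -3.38, -4.15 and -4.54 against -3.31, -3.26 and -2.24, so that KO replicate 1 lay just below WT replicate 1. With normexp background correction, which adds an offset to every signal and so changes dim ones most, its difference was -0.12 under 75th percentile scaling and -0.40 under quantile normalisation. Cenpf, a kinetochore protein, stood at -5.10, -5.66 and -5.89 against -4.93, -4.76 and -4.38. Its probe was not well above background on KO replicate 3 and entered the test through the arrays labelled WT. Its difference of -0.86 ± 0.25 became 0.22 with normexp correction and 75th percentile scaling, and -0.15 with normexp correction and quantile normalisation, so its sign depends on the processing. Bub1b and Cenpa, the centromeric histone, had non-overlapping groups with differences of -0.37 ± 0.16 and -0.40 ± 0.18. Bub1 was read by 9 or 10 spots on each array, whose SD lay between 0.035 and 0.12 within an array. Its array means were 0.51, -0.18 and 0.58 against 0.90, 0.57 and 0.62, and KO replicate 2 was the lowest. The spot SD covers technical spread within an array and not the spread between animals. Mad2l1 and Cenpe had differences of -0.11 ± 0.16 and -0.093 ± 0.18.

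At their brightest probe, most kinases and cyclins that drive mitosis had differences smaller than their SE. Cdk1 had a difference of -0.18 ± 0.26, Ccnb1 of -0.12 ± 0.20, Ccnb2 of -0.095 ± 0.21, Aurka of -0.16 ± 0.26 and Aurkb of -0.19 ± 0.27. Without KO replicate 2 these 5 lay between 0.010 and 0.075. Plk1, the Polo kinase, had a difference of -0.31 ± 0.31 and was -0.050 without that array. Ccna2, the cyclin of S phase and early mitosis, stood at 2.31, 1.74 and 2.27 against 2.72, 2.26 and 2.72, a difference of -0.46 ± 0.23. Foxm1, the transcription factor of mitotic genes, had a difference of -0.18 ± 0.26 with overlapping groups. Dimmer probes of Cdk1 gave differences of -0.46 and -0.047, and those of Ccnb1 gave -0.68 and -0.56.

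The general proliferation markers and the genes of mitotic exit spanned a wide range, from -0.72 to 0.40. Mki67, encoding Ki-67, stood at 3.30, 2.78 and 3.23 against 3.53, 3.31 and 3.48. At this probe the groups did not overlap by a narrow margin, with a difference of -0.34 ± 0.19, or -0.18 without KO replicate 2. The other Mki67 probe stood at 3.44, 2.95 and 2.36 against 2.95, 3.54 and 4.03. Its groups overlapped and its difference was -0.59. Top2a, which untangles chromosomes, had a difference of -0.33 ± 0.22. Ube2c, the ubiquitin-conjugating enzyme of the anaphase-promoting complex, stood at 0.34, 0.017 and -0.19 against 0.47, 0.60 and 1.26, a difference of -0.72 ± 0.26, 1.65-fold lower (limma adjusted p = 0.439). Its lowest array was KO replicate 3, and the difference was -0.70 without KO replicate 2. Cdc20, which activates the same complex, had a difference of -0.32 ± 0.21. Birc5 and Cdca8, both of the chromosomal passenger complex, had differences of -0.12 ± 0.20 and -0.35 ± 0.32. Cdca3, which helps destroy the kinase Wee1, was the 1 mitosis gene with a positive difference, 0.40 ± 0.34, and stood at 2.52, 2.29 and 3.18 against 2.76, 2.37 and 1.66.

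**Figure D4:**
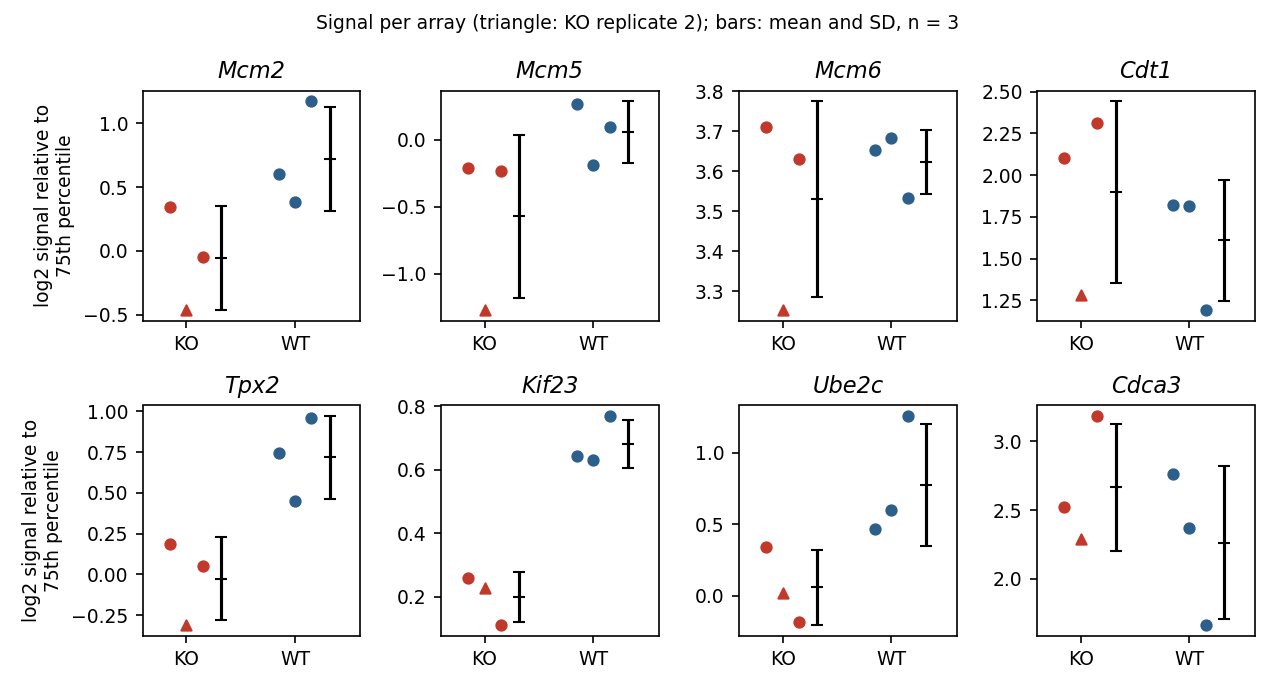
Log2 signal relative to the array's 75th percentile (vertical axes, which differ) of 4 replication genes (upper row) and 4 mitosis genes (lower row) on the arrays labelled KO (red) and WT (blue). Triangles mark KO replicate 2, and bars are the mean ± SD of 3 arrays. Kif23 separates the groups with SDs under 0.08, whereas in Mcm5 and Mcm6 KO replicate 2 lies far below the rest.

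Probes of the same gene gave the same sign but not the same size. The 46 genes were read by 62 probes, of which 61 passed the filter and 58 of these had a negative difference. For all 11 genes with several such probes the signs matched, and for 6 of them each dimmer probe had a more negative difference than the brightest, which stood for the gene. For Ccnb1 the brightest probe gave -0.12 and the others -0.56 and -0.68, and for Mad2l1 the values were -0.11, -0.60 and -0.85. Whether the groups overlapped could also differ by probe. In Mki67 and Kif2c only the brightest probe separated them, and in Mad2l1 only the dimmer probes did. When probes of a gene were averaged the mitosis median was -0.36. Probes also differed in their response to scan. Of the Birc5 probes 1 was 1.44 lower in scan 2 than in scan 1, while the other 2 were 0.25 and 0.24 higher. What sets these probes apart was not tested.

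Genes of the same pathway outside the members were taken from lists chosen for their role. Of 38 measured replication factors 29 had a negative difference, against 46.3% of all genes, with a median of -0.21, and none passed. At an unadjusted p under 0.05 limma gave 1 of the 38 as lower, where the share over all genes was 4.17%. This was Pola2, a subunit of the priming polymerase, at -0.50 ± 0.20. Cdc7, a kinase that fires origins, had the highest difference, 0.43 ± 0.24. Of 39 measured mitotic factors 34 had a negative difference, against the same 46.3%, with a median of -0.23, and none passed. The smallest p were those of the condensin gene Ncapg (-0.80 ± 0.22), the centromere gene Cenpn (-0.88 ± 0.27) and Ckap2l (-0.86 ± 0.28), each with non-overlapping groups. Limma gave these 3 of 39 as lower at an unadjusted p under 0.05, against 4.17% of all genes. The arrays labelled KO lay below all those labelled WT for 5 of 39, against 7.99% of all genes. Without KO replicate 2 the medians were -0.13 and -0.088, with 22 of 38 and 28 of 39 negative, where 49.7% of all genes were.

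The upstream regulators were mixed. Of 11 measured G1 cyclins, kinases and Myc genes 8 had a negative difference, against 46.3% of all genes, with a median of -0.19. Myc itself, a transcription factor of growth, stood at -0.19, -0.63 and -0.59 against 0.014, -0.066 and 0.49, a difference of -0.62 ± 0.22. Of 17 E2F, retinoblastoma and DREAM regulators 8 (47.1%) were negative, near the 46.3% of all genes, with a median of 0.077. Rbl1, encoding the pocket protein p107, had a difference of -0.73 ± 0.25 and Tfdp2, an E2F partner, one of 0.65 ± 0.20. None of these genes passed over all genes.

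Inhibitors of cyclin-dependent kinases and growth arrest genes lay on the other side of 0. Of 18 measured genes 17 had a positive difference and 1 a negative one, where 46.3% of all genes were negative. The median was 0.31. All 3 arrays labelled KO lay above all 3 labelled WT for 7 of these genes, against 10.2% of all genes. At an unadjusted p under 0.05 limma gave 8 as higher, against 6.21%. Cdkn1a, encoding the inhibitor p21, stood at -0.84, -0.32 and -0.45 on the arrays labelled KO and at -1.72, -2.03 and -1.78 on those labelled WT. The groups were well apart, with a difference of 1.30 ± 0.20 (limma adjusted p = 0.0887, or 0.0567 with scan as a block). The p53 targets Zmat3 and Trp53inp1 had differences of 1.37 ± 0.17 and 1.58 ± 0.24, and of the fit as reported and the fit with scan as a block, passed in the latter (limma adjusted p = 0.0367 and 0.0443, against 0.0530 and 0.0867 without the block), where 0.099% of all genes passed as higher. Here KO replicate 2 did not set the values, since the list's median without it was 0.37. Cdkn1b and Cdkn1c, encoding p27 and p57, had differences of 0.20 ± 0.16 and 0.070 ± 0.23, and Cdkn2c, encoding p18, was the 1 gene with a negative difference, -0.47 ± 0.31. The list was chosen with earlier results of these samples known, so its direction is not independent evidence.

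Markers of the dividing nephron progenitors were also mostly lower on the arrays labelled KO. Of 8 such markers 6 had a negative difference, against 46.3% of all genes, with a median of -0.46, and -0.32 without KO replicate 2. As a deviation from the mean of 6 arrays, their medians were -0.077, -0.53 and -0.060 on KO replicates 1 to 3. On WT replicates 1 to 3 they were 0.41, -0.092 and 0.43, so WT replicate 2 lay below KO replicates 1 and 3. Cited1, a marker of the uncommitted progenitors, stood at 1.47, 1.11 and 1.38 against 2.12, 1.70 and 2.19, a difference of -0.68 ± 0.20 (limma adjusted p = 0.385). Six2, which keeps these cells uncommitted, stood at 0.77, -0.056 and 0.85 against 1.55, 0.64 and 1.35, with overlapping groups and a difference of -0.66 ± 0.33. Eya1, a further progenitor regulator, went the other way with the largest difference of the list in size, 0.69 ± 0.44 with overlapping groups, and Sall1 had one of 0.070 ± 0.23. The summed linear signal of the 8 markers, relative to the 75th percentile, ranged from 18.8 to 29.1 on the arrays labelled KO and from 21.6 to 31.7 on those labelled WT. All 8 were well above background on all 6 arrays. The summed signal of 5 ureteric tip markers ranged from 12.1 to 13.8 on the arrays labelled KO and from 9.93 to 10.8 on those labelled WT. Of these 5 markers 4 had a positive difference, and Wnt11 had one of -0.35 ± 0.26. The summed signal of 8 erythroid markers ranged from 72.0 to 127 on the arrays labelled KO and from 72.8 to 114 on those labelled WT. That of 6 macrophage markers was at most 5.29 on the arrays labelled KO and at least 5.63 on those labelled WT. Their differences were uneven, from -1.58 to 0.022, and 5 of the 6 were negative, against 46.3% of all genes. Csf1r, the brightest of them, had overlapping groups and a difference of -0.11 ± 0.17. Of 5 endothelial markers 4 had a negative difference, against 46.3% of all genes, with a median of -0.31, and -0.27 without KO replicate 2. Cdh5 and Tek, encoding VE-cadherin and the receptor Tie2, had differences of -0.54 ± 0.18 and -0.59 ± 0.23 with non-overlapping groups (limma adjusted p = 0.423 and 0.464). Kdr, the brightest of the 5, went the other way with overlapping groups and a difference of 0.061 ± 0.28. The summed endothelial signal ranged from 11.3 to 15.5 on the arrays labelled KO and from 14.1 to 17.2 on those labelled WT. The part of these markers in the members' values was not tested.

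Members with and without the promoter elements had differences of overlapping size. Mitosis genes with TTTGAA in their window had a median difference of -0.35 over 19 genes, and the 6 without it had one of -0.12. The former ranged from -1.08 to 0.40 and the latter from -0.59 to -0.093, so the ranges overlapped. Of the promoters printed above, Ube2c and Kif11 belong to genes with non-overlapping groups, and Cdc20 and Cdk1, with the same elements, to genes whose groups overlapped. Replication genes with either E2F element had a median of -0.32 over 6 genes and those without one of -0.18 over 7. These are descriptions of members whose windows were in the table and were not tested.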

How the data were processed

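Arrays were read with Agilent's Feature Extraction software; the file headers give its version as 11.0.1.1, while 9.1 stands in the submitters' processing notes. Per the file headers, the deposited intensity is a linear spot signal with background subtracted, without normalisation across arrays. Each array held 44397 spots, of which 1377 were controls and were left out, as were spots flagged as outliers. Values are log2 of the processed intensity minus each array's 75th percentile; spots of a probe were averaged. Of 39429 probes 27234 matched a symbol through their accession in a RefSeq table of GRCm38.p6. The array was designed on mm9, per its file headers, so that table gave names only; promoter windows and their coordinates are those of GRCm38.p6. A probe entered if well above background (in at least 0.5 of its spots) on all arrays of a group, and the brightest stood for its gene. The test was limma's moderated, two-sided one (version 3.58.1, R 4.3.3), with Benjamini-Hochberg adjustment across 21220 genes; the procedure was tested on simulated data. Arrays with the same scan time and identifier in their headers were taken as 1 scan. The members, lists and alternatives were chosen with earlier results of these data known. All members could be named, with Usp10 and sex-linked genes, of each pathway list up to 4 genes with the smallest p and the 1 with the largest opposite difference, and of each marker list the brightest and those not well above background. Cdkn1b, Cdkn1c, Slc5a2, Hnf4a, Cited1, Six2, Eya1, Sall1, Wnt11, Cdh5, Tek and Kdr were named after their values were seen. Alternatives were other scalings, background corrections, filters, variance models, blocks and the omission of arrays.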

Additional observations from a re-analysis of the deposited data

How the results depend on the processing

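No member passed an adjusted p of 0.05 under any of the 22 alternatives; scan 2 alone has 1 array a group and no test. The number of arrays, 3 a group, limits every value, and dim probes depend on the background correction. The replicate numbers of the labels did not pair the arrays (correlations of same-numbered arrays -0.40, 0.48 and -0.60), and with a replicate block 0 genes passed, with 1611 at an unadjusted p under 0.05, 3 replication and 5 mitosis genes among them as lower. The count of 17 genes past the threshold was 0 with normexp and quantile normalisation, housekeeping scaling, no filter on dim probes, against WT replicate 3 alone or with a scan block without WT replicate 2, and the counts at an unadjusted limma p under 0.05 were then 2245, 2081, 2050, 2020 and 5139. It was 1 with probes well above background on all arrays and with the mean of probes, 45 with an intensity trend and robust variance, 36 with array weights, 53 with a scan block, 74 at an adjusted p of 0.1 and 356 by an absolute log2 difference of at least 1 with an unadjusted p under 0.05. Leaving out 1 array gave between 0 and 28, with 0 for each array other than KO replicate 3 (limma, 1071 to 2653 at an unadjusted p under 0.05).

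Without 1 array the replication median ranged from -0.35 to 0.056 and the mitosis median from -0.41 to -0.17, with 7 to 14 and 23 to 29 negative genes. At an unadjusted p under 0.05 there were 0 to 4 replication and 3 to 10 mitosis genes, where 1071 to 2653 of all genes, in either direction, were under it. In both lists the upper end of the median came without KO replicate 2. Replication genes at an unadjusted p under 0.05 numbered 3 with normexp and the 75th percentile, 0 with housekeeping scaling or array weights, and 2 with a scan block without WT replicate 2, against 1 as reported. Over all genes, in either direction, the counts in these 4 settings were 3061, 2081, 1780 and 5139, against 2202 as reported. Mitosis genes numbered 2 with housekeeping scaling, 5 with array weights, 4 in scan 1 alone and 5 against WT replicate 3 alone, against 9. All genes there numbered 2081, 1780, 1282 and 2020, in either direction, against 2202. The other scalings left medians between -0.33 and -0.16 for replication and between -0.39 and -0.27 for mitosis genes. Over all genes the median, 0.031 as reported, became 0.14 under normexp with 75th percentile scaling and 0.10 under housekeeping scaling, and below it the replication and mitosis medians lay by -0.32 and -0.42, and by -0.26 and -0.37.

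Of 1011 member values under alternatives 34 changed sign, in 15 genes, and the cause was not tested. With normexp and the 75th percentile Ccne2 was 0.11, E2f1 0.00436 and Cenpf 0.22. Rrm2 was 0.0098 with housekeeping scaling and 0.036 with array weights, and Tyms 0.032 in scan 1 alone. Against WT replicate 3 alone Mcm3 was 0.030, Pcna 0.11, Tyms 0.13, Ccne2 0.45, Cdk1 0.044, Ccnb2 0.051, Aurka 0.20, Aurkb 0.042, Cenpe 0.17 and Birc5 0.072. Leaving out 1 array gave ranges of -0.38 to 0.089 for Mcm3, -0.18 to 0.047 for Mcm6, -0.24 to 0.065 for Pcna, -0.20 to 0.17 for Rrm2, -0.34 to 0.24 for Tyms, -0.86 to 0.30 for Ccne2, -0.38 to 0.12 for E2f1, -0.38 to 0.035 for Cdk1, -0.22 to 0.037 for Ccnb1, -0.24 to 0.043 for Ccnb2, -0.35 to 0.035 for Aurka, -0.38 to 0.075 for Aurkb and -0.21 to 0.032 for Birc5. The other 31 members kept their sign under every alternative run.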
